A study of Bos taurus with 18 samples.

Results

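Of 31500 CpGs measured by reduced representation bisulfite sequencing (RRBS) in bovine EBTr cells, 444 (1.41%) were selected on a mean M-value over the 18 libraries of at most -3 and are called unmethylated here. The M-value compares the methylated with the unmethylated reads at a cytosine as a log2 ratio, and a value of -3 stands for a methylation level of 11.1%. EBTr is a single fibroblast line from the trachea of a bovine embryo, and RRBS reads methylation after an enzyme digest that enriches for CpG-rich parts of the genome. The cells were grown at a glucose level of 1 g/L in the Low and 4.5 g/L in the High treatments, each with no added epigenetic modifiers (EM; Control) or with EM raised to 2.5 (×2.5) or 5 times (×5) the Control level, and the question was how the supplement changes DNA methylation at either glucose level. The EM were folate, choline, vitamin B12 and methionine, of which methionine was held to a smaller multiple by the study's methods. The medium of all 6 treatments also held fetal bovine serum, antibiotics and sodium pyruvate. Each treatment had 3 libraries from 3 frozen cell pellets, and since no label says that the pellets came from separate cultures, the p-values measure the spread between these samples, which may be technical.

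In mammalian DNA most CpGs carry a methyl group on the cytosine, which DNA methyltransferases add from S-adenosylmethionine, the methyl donor that the methionine and folate cycles supply. Unmethylated CpGs are best known from CpG islands, many of which lie at the start of genes, where neighbouring CpGs are usually unmethylated together. Isolated unmethylated CpGs inside methylated DNA are less common.

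The libraries differed in their overall range of M-values before any treatment is considered. The SD over all CpGs lay between 1.58 and 1.83 per library and the median between 1.42 and 1.74. Low Control replicates 2 and 3 stood apart from Low Control replicate 1 at the unmethylated CpGs, with mean M-values of -3.59 and -3.32 against -4.28. Low Control replicate 3 was the highest of the 18 libraries and held the highest value of 164 of the 444 CpGs. The depth of each library and CpG is unknown from the values, so no interval for counting error could be given.

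The mean M-value of the unmethylated CpGs ranged from -7.96 to -3.003, with a median of -3.90, and their mean level from 0.418% to 12.4%, with a median of 6.72%. The median over all tested CpGs was an M-value of 1.66 and a level of 75.5%. These values chose the CpGs and are given as a description. Most lay near the threshold, with 242 above -4, 128 above -5 and up to -4, 49 above -6 and up to -5, and 25 at -6 or lower. The levels formed a tail and not a separate group, since a further 660 CpGs had a mean above -3 and up to -2. In single libraries the values ran from -9.12 (0.180%) to -1.12 (31.6%). No unmethylated CpG was above 0 in any library, 176 (39.6%) were at -3 or lower in every library, and 44 were above -2 in at least 1 library.

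**Figure D1:**
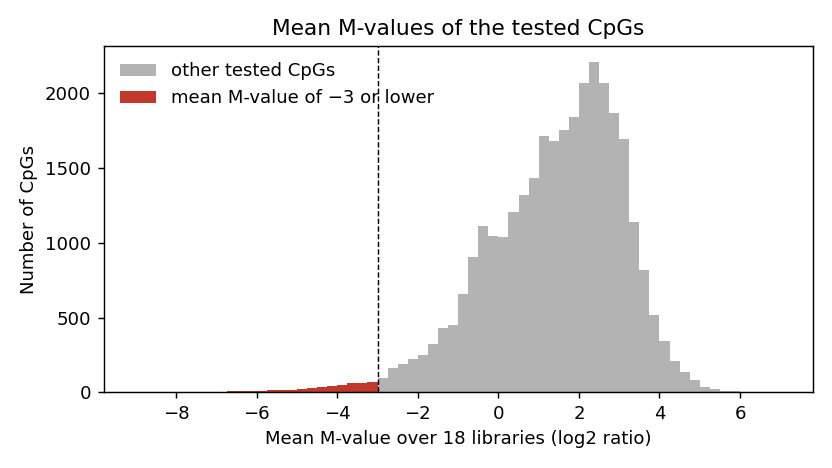
Number of CpGs (vertical axis) by mean M-value over 18 libraries (horizontal axis, log2 ratio), with the 444 CpGs at -3 or lower in red and the other tested CpGs in grey. The red CpGs are the low tail of a distribution whose median is 1.66, and no gap separates them from the grey CpGs at the dashed threshold.

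The CpGs with the lowest means were at position 17970501 of chromosome 6 (-7.96, 0.418%), position 107300636 of chromosome 11 (-7.62, 0.569%) and position 9377353 of chromosome X (-7.51, 0.656%), in coordinates of the bosTau8 build. The first lay in a region that the study's tables assign to RPL34, a protein of the large ribosomal subunit, and the second in one assigned to IFITM3, an interferon-induced membrane protein. At the chromosome 11 CpG, the cytosine on the opposite strand was at -3.89 and the 9 tested neighbours within 50 bp had a median level of 86.3%. Just inside the threshold were position 6632586 of chromosome 6 (12.4%), in a region assigned to the cyclic GMP phosphodiesterase PDE5A, and position 82780160 of chromosome 3 (11.5%). Just outside it were position 11950831 of chromosome 8 (11.3%) and position 114207868 of chromosome 5 (11.7%). A symbol here is the closest start site that those tables list for CpGs of the region, and it says nothing of a distance or of the gene's activity.

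Unmethylated CpGs lay on 29 of the 30 chromosomes with tested CpGs. The largest number was on chromosome 14, with 49 of 1428 tested CpGs (3.43%) in 19 regions. Chromosome 3 held 39 of 2778 (1.40%) and chromosome 8 held 38 of 3578 (1.06%). The shares on chromosomes 12 (4.67%, 7 CpGs), 17 (4.30%, 29 CpGs) and 23 (4.06%, 8 CpGs) were above that of chromosome 14, on 150, 674 and 197 tested CpGs. None of the 160 tested CpGs on chromosome 18 was among the 444.

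Tested CpGs more than 10 kb apart were put in separate regions, which gave 612 regions, of which 207 (33.8%) held at least 1 unmethylated CpG. They were spread thinly: 103 regions held 1, 57 held 2 and 47 held 3 or more. The 5 regions with the most held 58 (13.1%) of the 444, and 46 regions were enough to hold 50% of them. Regions with unmethylated CpGs had a median of 47 tested CpGs, and regions without had 14, so that the former offered more CpGs to be found. In 10 regions the unmethylated CpGs made up at least 50% of the tested CpGs, but these regions held no more than 27 of the 444.

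Within a region, most unmethylated CpGs stood without another unmethylated CpG as the next tested site. With both strands of a CpG counted once, the 444 cytosines formed 390 sites in 351 runs of neighbouring tested sites, and 317 runs (90.3%) were a single site. There were 29 runs of 2 sites and 5 runs of 3, and none was longer. Unmethylated CpGs were 1.41% of those tested, and the number of runs to be found without clustering was not computed. The runs of 3 sites lay at chr3:8104342-8104354, chr12:80364290-80364552, chr17:50851991-50852087, chr17:51223087-51223125 and chrX:114170967-114171081. The run on chromosome X had the lowest median M-value of these, at -6.39 over 3 cytosines, and the 4 others had medians between -4.27 and -3.34 over 5 cytosines each.

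Most unmethylated CpGs had methylated CpGs close by, but less often than tested CpGs in general. Of the 413 with another tested CpG within 50 bp, the strand partner left out, 239 (57.9%) had neighbours with a median M-value above 0. A median of -1 or lower was found for 130 (31.5%) and one of -3 or lower for 27. Of the 30823 tested CpGs with such a neighbour, 86.9% had a median above 0 and 5.56% a median of -1 or lower. A median of -3 or lower was found for 122 of these 30823. The median over the 413 unmethylated CpGs was a neighbour level of 56.9%, against 76.3% around all tested CpGs and 41.7% around the 2109 CpGs with a mean above -3 and up to -1. The neighbours of the CpGs with the lowest mean M-values were the more methylated: their median level was 70.5% around the CpGs at -5 or lower, 61.0% around those above -5 and up to -4, and 44.3% around those above -4. In these 3 classes, 55 of 72, 76 of 119 and 108 of 222 CpGs had neighbours with a median above 0. The classes are cut on the M-value, which more reads can also lower, so methylation and depth cannot be told apart in them. The remaining 31 had no other tested CpG within 50 bp. These are descriptions across CpGs that share libraries and, in part, neighbours.

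Counted by cytosine, the 2 strands of a CpG were mostly alike. For 145 of the 444 cytosines the opposite strand was tested as well, and it was also at -3 or lower in 108 (74.5%). Its median M-value was -3.51, and the median absolute difference between strands was 0.30. A CpG with both strands at -3 or lower entered these values with each strand, and one with a single such strand entered with that strand alone. The values thus lean towards CpGs with like strands, and no share per CpG was computed. In 13 cases the opposite strand had a mean M-value above 0. No DNA sequence was read, so whether the 2 cytosines of such a CpG truly differ in methylation was not tested.

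The 5 regions with the most unmethylated CpGs differed in how methylated their other CpGs were. The first, chr3:8102321-8111849, held 22 of 625 tested CpGs and is assigned to CFAP126, a protein of cilia and flagella. Its other CpGs were low as well, with a median of -0.88, and 17 of the 22 had neighbours with a median of -1 or lower, none with a median above 0. A short region at chr17:50850744-50852318, assigned to ZNF280BY, held 8 of 30 tested CpGs and was mixed. Its other CpGs had a median of -0.25. Of the 8, 5 had neighbours with a median of -1 or lower and 2 had neighbours with a median above 0. In the other 3 regions the unmethylated CpGs lay among methylated ones. The region chr3:82708009-82911078, assigned to ALG6, a glucosyltransferase of N-glycan synthesis, held 11 of 988, and 10 of the 11 had neighbours with a median above 0. The region chr29:19399061-19449567, assigned to the p21-activated kinase PAK1, held 9 of 730, and chr4:41465301-41497496, assigned to the inhibitory G protein subunit GNAI1, held 8 of 415. In both of these, every unmethylated CpG (9 of 9 and 8 of 8) had neighbours with a median above 0. The CpGs of the GNAI1 region also had the lower M-values, with means from -6.70 to -4.38, whereas those of the CFAP126 region lay between -4.07 and -3.03.

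**Figure D2:**
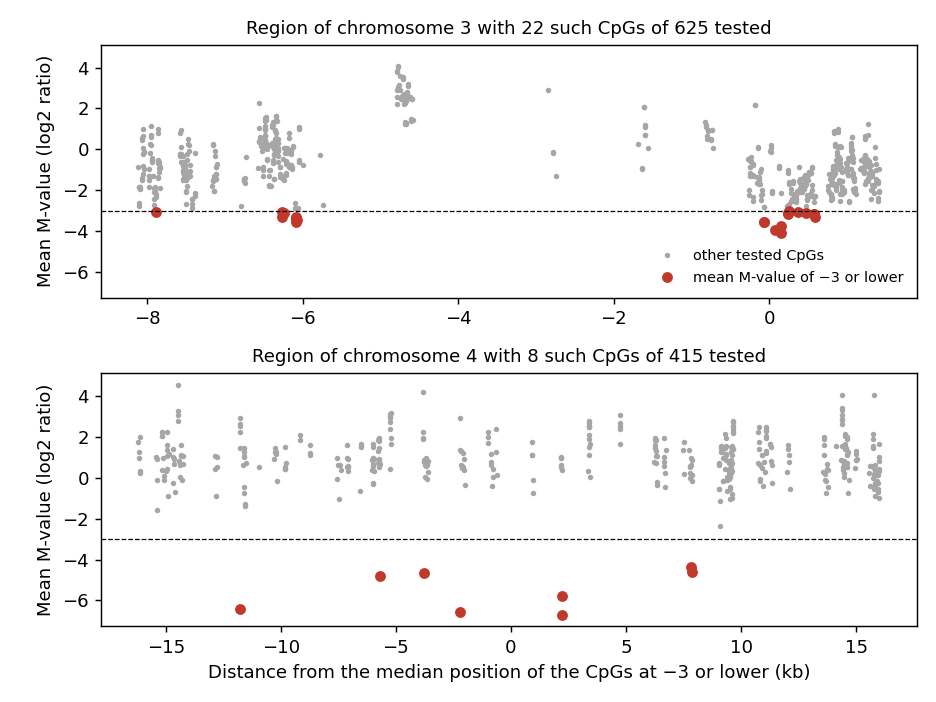
Mean M-value over 18 libraries (log2 ratio) of each tested CpG by its distance in kb from the median position of the unmethylated CpGs (red) in the CFAP126 region of chromosome 3 (top) and the GNAI1 region of chromosome 4 (bottom). The 22 red CpGs of the top panel are the low edge of a low-methylated stretch, and the 8 of the bottom panel lie well below their grey neighbours.

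Over the 444 CpGs, the library means of the M-value were -4.28, -3.59 and -3.32 in Low Control, -4.03, -4.45 and -4.48 in Low ×2.5, and -4.69, -4.45 and -4.32 in Low ×5. In High cells they were -4.38, -4.08 and -4.40 in Control, -4.32, -3.97 and -3.70 in ×2.5, and -3.87, -3.73 and -4.29 in ×5. The order of the treatments from lowest to highest was Low ×5 (-4.48 ± 0.19, SD, n = 3), Low ×2.5 (-4.32 ± 0.25), High Control (-4.29 ± 0.18), High ×2.5 (-3.998 ± 0.31), High ×5 (-3.96 ± 0.30) and Low Control (-3.73 ± 0.50). Neighbours in this order overlapped in their libraries. As levels, the lowest and highest treatments were 5.42% ± 0.492 and 8.42% ± 2.22, and single libraries lay between 4.91% and 10.4%.

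**Figure D3:**
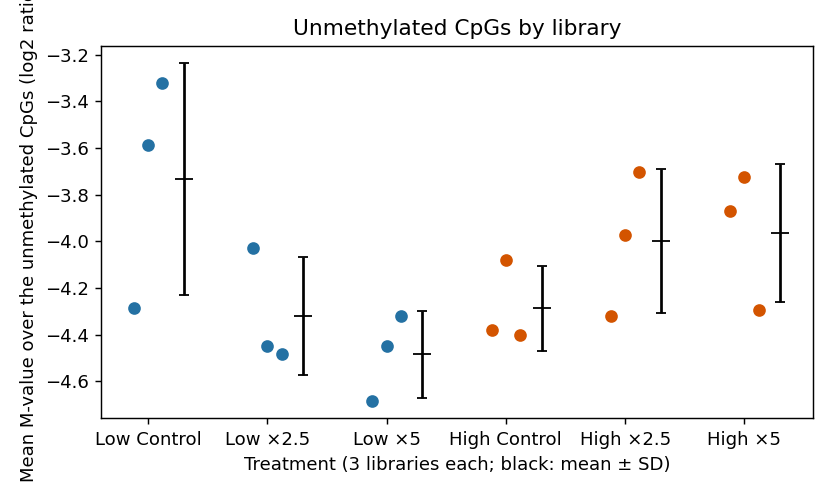
Mean M-value over the 444 unmethylated CpGs (vertical axis, log2 ratio) in each of the 18 libraries (points), by treatment, with the mean and SD of 3 libraries in black. Low Control is the most spread treatment, from -4.28 to -3.32, and the 3 libraries of Low ×5 lie below all 3 of Low Control.

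CpGs with an unadjusted limma p-value under 0.01 are called methylated or demethylated by the sign in the treatment named first. In Low ×5 vs. Low Control, 92 of the 444 were called, which is 20.7%, against 2.40% of all tested CpGs. Of these, 91 were demethylated and 1 was methylated, whereas over all tested CpGs 0.619% were called demethylated and 1.78% methylated. The mean difference over the 444 was -0.75 on the log2 scale, and 403 (90.8%) were lower in Low ×5. The library means did not overlap, but the gap between the highest Low ×5 library (-4.32) and the lowest Low Control library (-4.28) was narrow. Single CpGs whose 3 libraries were all lower than those of Low Control numbered 118 of the 444, against 3.68% of all tested CpGs. Under quantile normalization, which gives all libraries the same distribution, 23 were called (16 demethylated and 7 methylated), which is 5.18%, against 1.64% of all tested CpGs under that scaling. The mean difference was then -0.13, and 250 were lower. The count was 23 without the libraries numbered 2, against 1.29% of all tested CpGs. It was 30 without Low Control replicate 3 or without Low ×5 replicate 1, against 1.498% and 1.603%. It was 41 without Low Control replicate 2 (against 1.84%) and 51 without Low ×5 replicate 2 (against 1.78%). Without Low Control replicate 1 it was 147, against 4.94%.

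The difference between Low ×5 and Low Control was larger on the log2 scale where the mean M-value of the CpG was lower. A lower mean can also come from more reads, and since the depth is unknown, methylation and depth cannot be told apart in these classes. It was -1.10 over the 74 CpGs at -5 or lower, -0.96 over the 128 up to -4 and -0.54 over the 242 above -4, and 30, 36 and 26 CpGs of these classes were called. In percentage terms the levels in Low ×5 and Low Control were 1.41% ± 0.178 and 3.16% ± 1.33 in the first class and 7.60% ± 0.522 and 10.8% ± 2.38 in the last. CpGs among methylated neighbours differed by -0.83 (61 of 239 called) and those with neighbours at a median of -1 or lower by -0.61 (16 of 130 called). The difference between these classes was not tested.

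In Low ×2.5 vs. Low Control, 30 of the 444 (6.76%) were called, all demethylated, against 2.0% of all tested CpGs called in either direction and 0.470% called demethylated. The mean difference was -0.59, 386 were lower, and the library means overlapped. Under quantile normalization 19 were called (4.28%, against 1.57% of all tested CpGs), of which 13 were demethylated, and the mean difference was -0.12. Without Low Control replicates 1, 2 and 3 the counts were 101, 13 and 10, against 4.49%, 1.72% and 1.30% of all tested CpGs. Without Low ×2.5 replicates 1, 2 and 3 they were 51, 12 and 8, against 1.71%, 1.51% and 1.51%. Low ×5 vs. Low ×2.5 had few calls, with 1 of the 444 called, demethylated, against 0.371% of all tested CpGs called and 0.143% called demethylated, and a mean difference of -0.16. It was -0.0055 under quantile normalization and changed sign without the libraries numbered 1.

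In High cells the mean over the unmethylated CpGs was higher with EM, with overlapping libraries. High ×5 vs. High Control gave 9 calls (2.03%), all methylated, against 1.37% of all tested CpGs called and 0.292% called methylated. The mean difference was 0.32, 342 were higher, and the library means overlapped. Under quantile normalization the mean difference was 0.036 and 8 were called (1.80%, against 1.18% of all tested CpGs), 6 of them methylated. High ×2.5 vs. High Control gave 10 calls (8 methylated and 2 demethylated) against 1.02% of all tested CpGs (0.343% and 0.676%), with a mean difference of 0.29. Under quantile normalization the mean difference was 0.057 and 11 were called (2.48%, against 1.003%), of which 6 were methylated. High ×5 vs. High ×2.5 gave 4 calls, 2 in each direction, against 1.47% of all tested CpGs (0.454% methylated and 1.02% demethylated). Its mean difference was 0.035, which turned to -0.022 under quantile normalization, where all 4 calls (0.901%, against 1.64%) were methylated. Leaving out single libraries gave 5 to 17 calls in High ×5 vs. High Control. There were 5 without High Control replicate 3 or High ×5 replicate 1, against 1.28% and 1.41% of all tested CpGs. There were 14 without High ×5 replicate 3 (against 2.11%) and 17 without High Control replicate 2 (against 1.25%). In High ×2.5 vs. High Control it gave 4, 1 and 3 without High Control replicate 1, High Control replicate 3 and High ×2.5 replicate 3. The shares of all tested CpGs were then 0.883%, 1.08% and 0.8%. In High ×5 vs. High ×2.5 there were 2 without High ×5 replicate 1, against 1.37%.

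The interaction of glucose and ×5, which compares the effect of ×5 in High cells with that in Low cells, was called at 87 of the 444 (19.6%), against 2.79% of all tested CpGs. At 86 of the 87 the effect of ×5 was higher in High than in Low cells. Of all tested CpGs, 0.568% were called in that direction and 2.23% in the other. Under quantile normalization 28 of the 444 were called (6.31%, against 1.61% of all tested CpGs), 21 of them with the higher effect in High cells. The count was 155 without Low Control replicate 1 and 51 without Low Control replicate 3, against 4.88% and 2.09% of all tested CpGs. It was 55 without Low ×5 replicate 1 and 53 without High ×5 replicate 2, against 2.06% and 2.15%.

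Between the 2 glucose levels, the mean difference was negative in Control and positive at ×2.5 and ×5. Without supplement, High Control vs. Low Control gave 31 calls (6.98%), all demethylated, against 1.92% of all tested CpGs called and 0.543% called demethylated. The mean difference was -0.56, 384 were lower, and the library means overlapped. With the share of all tested CpGs in brackets, the count was 10 (1.34%) without Low Control replicate 3 and 13 (1.64%) without High Control replicate 3. It was 14 (1.45%) without High Control replicate 1, 18 (1.65%) without Low Control replicate 2 and 92 (4.26%) without Low Control replicate 1. At ×5, High ×5 vs. Low ×5 gave 35 calls (7.88%), of which 34 were methylated, against 1.61% of all tested CpGs called with 0.305% called methylated and 1.30% demethylated. The mean difference was 0.52, 365 were higher, and the library means did not overlap, with -4.29 the lowest in High ×5 and -4.32 the highest in Low ×5. Single CpGs with all 3 High ×5 libraries higher numbered 113, against 3.36% of all tested CpGs. The count of calls was 12 to 13 without High ×5 replicate 1 or 2 or Low ×5 replicate 1, against 1.07% to 1.47% of all tested CpGs. It was 21 without Low ×5 replicate 2 (against 1.26%) and 63 without High ×5 replicate 3 (against 2.39%). Under quantile normalization 4 were called at ×5 (0.901%, against 1.03% of all tested CpGs), 2 in each direction, with a mean difference of 0.054. Between the Controls 19 were then called (4.28%, against 1.67%), 11 demethylated and 8 methylated, with a mean difference of -0.11. At ×2.5, 5 were called, all methylated, against 1.01% of all tested CpGs called and 0.308% called methylated, with a mean difference of 0.32. Under quantile normalization the mean difference was 0.070 and 7 were called (1.58%, against 0.927%), 5 of them methylated. The count was 16 and 3 without Low ×2.5 replicates 1 and 2, against 0.921% and 0.917% of all tested CpGs. It was 18 and 8 without High ×2.5 replicates 1 and 2, against 1.65% and 0.971%. In High ×5 vs. Low Control, where both factors changed, 4 were called, all demethylated, against 1.75% of all tested CpGs called and 0.813% called demethylated, with a mean difference of -0.23. Under quantile normalization the mean difference was -0.072 and 15 were called (3.38%, against 2.25%), 10 of them demethylated. The count was 20 and 9 without Low Control replicates 1 and 2, against 3.24% and 1.895% of all tested CpGs. It was 8 and 7 without High ×5 replicates 2 and 3, against 1.75% and 2.19%.

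**Figure D4:**
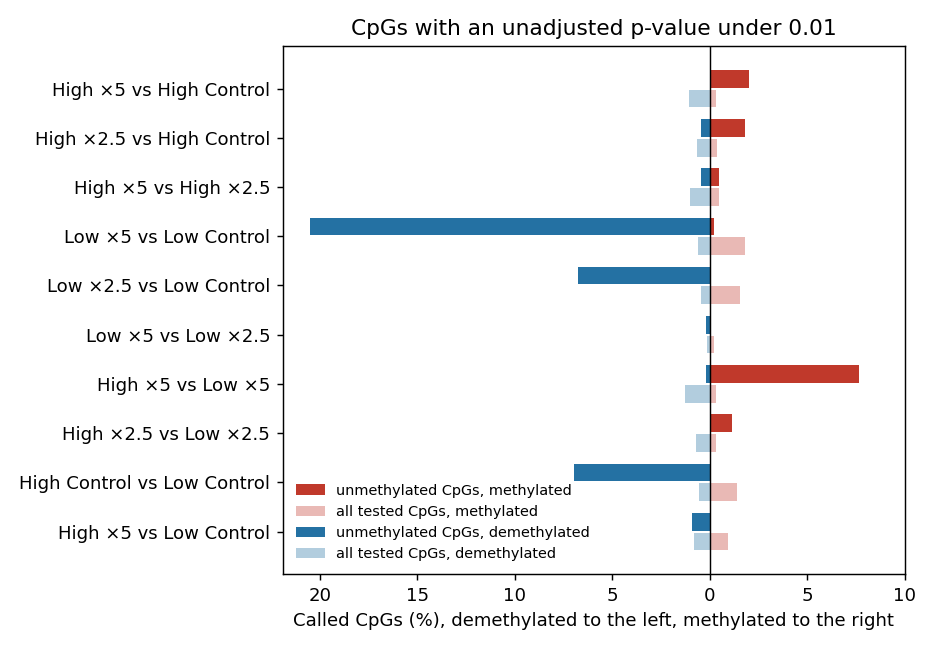
Percent of CpGs called at an unadjusted p-value under 0.01 in each of the 10 contrasts, demethylated to the left and methylated to the right, for the 444 unmethylated CpGs (dark bars) and all 31500 tested CpGs (pale bars). The longest dark bars are those of Low ×5 vs. Low Control to the left (91 CpGs) and of High ×5 vs. Low ×5 to the right (34 CpGs), both opposite to the longer pale bar of the same contrast.

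None of the 444 had an adjusted p-value under 0.05 (Benjamini-Hochberg over all tested CpGs, limma) in the 10 contrasts, the interaction and the F-test of the 6 treatments. Of all tested CpGs, 0.00317% had one in High ×5 vs. Low ×5 and 0.00952% in the interaction. With an unadjusted limma p-value under 0.05, the counts over the contrasts ran from 9 of the 444 in Low ×5 vs. Low ×2.5 (2.39% of all tested CpGs) to 167 in Low ×5 vs. Low Control (8.57%), with 175 for the interaction (9.63%) and 93 for the F-test (6.85%). The F-test called 29 of the 444 (6.53%) at the 0.01 threshold, against 1.44% of all tested CpGs. Its count was 77 without Low Control replicate 1, against 2.71% of all tested CpGs. It was 16 to 18 without Low Control replicate 2 or 3, Low ×5 replicate 1 or 2, or High Control replicate 3, against 1.18% to 1.41%. In total, 132 (29.7%) were called in at least 1 contrast, against 9.68% of all tested CpGs. The 4 contrasts with Low Control share its 3 libraries and held 157 of the 221 calls.

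The unmethylated CpGs moved opposite to the most methylated CpGs from library to library. The 5019 CpGs with a mean M-value above 3 differed by 0.36 in Low ×5 vs. Low Control, by -0.31 in High ×5 vs. Low ×5 and by 0.28 in High Control vs. Low Control, where the unmethylated CpGs differed by -0.75, 0.52 and -0.56. The median difference over all tested CpGs was 0.10, -0.10 and 0.08. The CpGs above -3 and up to -1 differed by -0.14, 0.09 and -0.12. Of the 6 libraries with the lowest mean at the unmethylated CpGs, 5 were among the 6 with the highest mean at CpGs above 3, and at the other end 6 of 6 were shared. The rank of a library by this mean and its rank by the SD of all M-values differed by at most 2 places of 18. On the scale of levels, where the test was run on fractions, 19 of the 444 were called in Low ×5 vs. Low Control (4.28%, against 1.97% of all tested CpGs on that scale). In High ×5 vs. Low ×5 there were 3 (0.676%, against 1.30%) and in High Control vs. Low Control 10 (2.25%, against 1.93%).

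**Figure D5:**
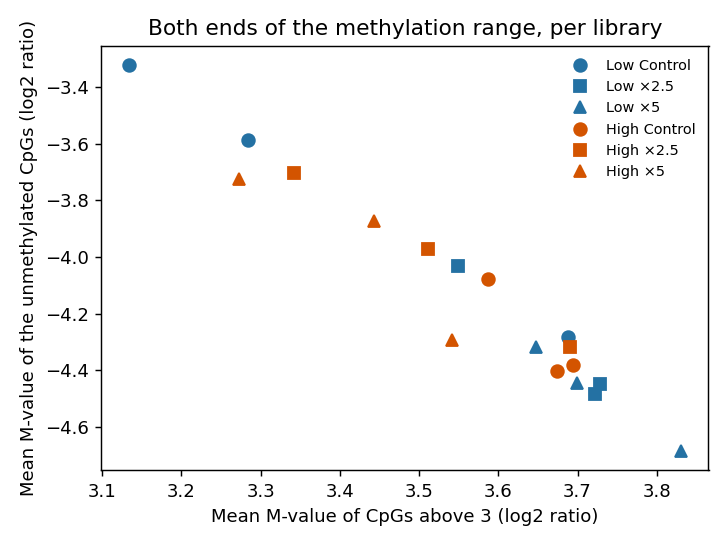
Mean M-value of the 444 unmethylated CpGs (vertical axis, log2 ratio) against that of the 5019 CpGs above 3 (horizontal axis, log2 ratio), 1 point per library, with blue for Low, orange for High, circles for Control, squares for ×2.5 and triangles for ×5. Libraries with lower values at the unmethylated CpGs had higher values at the other end, from Low Control replicate 3 (-3.32) at the top left to Low ×5 replicate 1 (-4.69) at the bottom right.

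The form of the values bears on how they were made. Of all values of the unmethylated CpGs, 46.6% equalled the log2 of 2 over a whole number within 1e-06, against 3.43% of all tested values. This is the form that a CpG without a methylated read takes when 2 is added to both read numbers, although other read numbers can give it too. For such a CpG the M-value depends on the number of reads alone and lies lower with more reads. The share ran from 33.6% in Low ×5 replicate 1, the lowest library, to 61.3% in Low Control replicate 3, the highest. Since the reads are not known, treatment and depth cannot be told apart in these differences.

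Among single CpGs, position 97138596 of chromosome 5 gave the smallest p-value in Low ×5 vs. Low Control. It lay in a region assigned to GSG1. Its M-values were -3.62, -3.17 and -2.81 in Low Control and -5.78, -5.17 and -4.52 in Low ×5. The groups did not overlap, and the level was 10.0% ± 2.50 in Low Control and 2.89% ± 1.20 in Low ×5 (SD, n = 3). The difference was -1.96 (SE 0.39; limma adjusted p = 0.253).

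In Low ×2.5 vs. Low Control and in the F-test it was position 35453670 of chromosome 25, listed with the microRNA gene MIR2388. The values were -2.94, -3.58 and -2.81 in Low Control and -4.88, -4.36 and -4.72 in Low ×2.5, a difference of -1.54 (SE 0.31; limma adjusted p = 0.378). All 3 supplemented libraries were lower. In Low ×5 the level was 5.70% ± 0.244, between the 3.86% ± 0.710 of Low ×2.5 and the 10.6% ± 2.54 of Low Control.

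Position 12133291 of chromosome 7 is listed with NDUFB7, a subunit of complex I of the mitochondrial respiratory chain, and had the smallest p-value in High Control vs. Low Control. Its values were -5.13, -4.86 and -5.07 in High Control and -3.26, -2.12 and -2.70 in Low Control. The levels were 3.00% ± 0.292 and 13.8% ± 4.68, with no overlap and a difference of -2.32 (SE 0.50; limma adjusted p = 0.367). It had no tested neighbour within 50 bp. In High ×5 vs. Low Control it was position 89222273 of the same chromosome, listed with RASA1, a GTPase-activating protein of Ras. Its level was 5.79% ± 1.03 in High ×5 and 14.4% ± 1.69 in Low Control, a difference of -1.46 (SE 0.29; limma adjusted p = 0.437).

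The CpG called most often was position 93162246 of chromosome 7, in a region assigned to the alpha-arrestin gene ARRDC3, in 7 of the 10 contrasts, among them High ×2.5 vs. High Control, where its p-value was the smallest. Its values were -5.58, -5.61 and -6.02 in High Control, -4.75, -4.81 and -4.25 in High ×2.5 and -4.49, -4.64 and -5.07 in High ×5. In Low cells they were -5.24, -4.55 and -4.39 in Control, -5.17, -6.26 and -5.97 in ×2.5 and -6.01, -5.37 and -6.16 in ×5. Supplemented High cells were thus above High Control in every library, and in Low cells ×5 was below Control. The levels were low throughout, 1.85% ± 0.292 in High Control and 4.01% ± 0.863 in High ×2.5, a difference of 1.14 (SE 0.32; limma adjusted p = 0.949), while its 3 neighbours had a median level of 73.4%.

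Position 7663413 of chromosome 13, for which no symbol was listed, led High ×5 vs. Low ×5 by p-value. Its values were -1.46, -1.70 and -2.81 in High ×5 and -3.79, -4.67 and -3.41 in Low ×5, or 20.9% ± 7.44 and 6.38% ± 2.44, a difference of 1.97 (SE 0.46; limma adjusted p = 0.448). The groups did not overlap, and the 3 neighbours had a median level of 86.3%. In High ×2.5 vs. Low ×2.5 it was position 401617 of chromosome 14, listed with C14H8orf33. Its level was 5.46% ± 0.376 in High ×2.5 and 1.76% ± 0.554 in Low ×2.5, a difference of 1.74 (SE 0.39; limma adjusted p = 0.945).

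Position 8110910 of chromosome 3, in the CFAP126 region, was the 1 CpG called methylated in Low ×5 vs. Low Control. Its values were -3.64, -3.51 and -3.62 in Low Control and -2.71, -2.54 and -2.74 in Low ×5, or 7.66% ± 0.356 and 13.7% ± 0.898, a difference of 0.93 (SE 0.27; limma adjusted p = 0.359). The groups did not overlap. It was also the CpG with the smallest p-value in High ×5 vs. High ×2.5, where it was 8.04% ± 3.38 and 13.5% ± 0.848 (difference -0.94; limma adjusted p = 0.643). Position 8104342 of the same region led High ×5 vs. High Control by p-value and is the first cytosine of the run of 3 sites on chromosome 3. Its values were -2.93, -3.22 and -2.62 in High ×5 and -4.43, -4.23 and -4.14 in High Control, or 11.7% ± 2.14 and 4.95% ± 0.479, a difference of 1.34 (SE 0.29; limma adjusted p = 0.444).

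By region, 6 of the 22 CpGs of the CFAP126 region and 6 of the 8 of the GNAI1 region were called in at least 1 contrast, against 3, 1 and 1 in the ALG6, PAK1 and ZNF280BY regions. The share over all tested CpGs was 9.68%. In the GNAI1 region the mean over the 8 CpGs was -4.80 ± 0.76 in Low Control, -6.05 ± 0.16 in Low ×5, -5.74 ± 0.05 in High Control and -5.14 ± 0.39 in High ×5. Low ×2.5 was at -5.68 ± 0.61 and High ×2.5 at -5.52 ± 0.72, nearly as variable as Low Control, which was the highest. In the CFAP126 region the same 4 means were -3.02 ± 0.27, -3.51 ± 0.10, -3.44 ± 0.17 and -3.29 ± 0.05, with Low ×2.5 at -3.54 ± 0.20 and High ×2.5 at -3.30 ± 0.21. Low ×2.5 was the lowest treatment there, whereas Low ×5 was the lowest in the GNAI1 region.

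Replicate spread was wide on the log2 scale and small in percent. The SD within treatments had a median of 0.59 over the 444 CpGs (quartiles 0.48 and 0.68), against 0.42 for CpGs above -3 and up to -1 and 0.43 for all tested CpGs. In percentage points it was 2.35, against 4.88 and 4.58. The median range of the 6 treatment means was 1.03, against 0.61 and 0.62. Treatments took a median of 36.4% of the variance, against 29.2% and 28.9%. With no difference between treatments the mean share would be 29.4%, which is a mean and not a median. The most variable CpG was position 40600812 of chromosome 5, in a region assigned to the kinase gene LRRK2, with a within-treatment SD of 0.99. Its Low Control values were -4.88, -1.58 and -2.81 and its High ×2.5 values -2.38, -4.29 and -1.17, and it was called in no contrast. Next were position 51629520 of chromosome 17 (0.94), in a region assigned to LOC104974629, and position 70974914 of chromosome 8 (0.93), in a region assigned to TNFRSF10D, a decoy receptor for the death ligand TRAIL. The cytosine on the opposite strand of the former, position 51629521, had the smallest p-value in Low ×5 vs. Low ×2.5, at 3.83% ± 1.53 and 9.05% ± 1.68 (difference -1.40, SE 0.46; limma adjusted p = 1.00).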

How the data were processed

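RRBS libraries were made from DNA of EBTr cells, 18 in all and 3 per treatment. According to the methods and labels, reads were trimmed with Cutadapt, checked with FastQC 0.11.8 and MultiQC 1.9, mapped to bosTau8 and called with Bismark 0.22.3 in the methylseq pipeline, and cytosines in a CpG context were kept and filtered on coverage. The authors deposited log2 values, 1 M-value per cytosine and library, with an offset in both read numbers that is not named in the sources used here. Few reads pull an M-value towards 0, and the depth is unknown.

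Unmethylated CpGs were taken as those whose M-values averaged -3 or less. They and the lists were chosen with earlier results of these data known. A level is the percentage that the M-value implies, offset included. Differences were tested two-sided with limma 3.58.1 (R 4.3.3) on all 31500 CpGs and 18 libraries, with 1 mean per treatment and eBayes, and Benjamini-Hochberg adjustment over all CpGs. The code was tested on simulated data. Calls were made at the study's threshold, a p-value under 0.01 without adjustment. The study applied that threshold to tests in edgeR, so the calls here are not the study's own. Means over the 444 CpGs got no p-value. The contrast that the methods list a second time was read as Low ×5 vs. Low ×2.5. Replicate numbers came from the labels. CpGs named are those with the smallest p-value in each test, the 3 lowest, the 3 most variable and the 2 on either side of the threshold, and the regions named are the 5 with the most such CpGs. The runs of 3 sites, the most often called CpG and the CFAP126 CpG called methylated were described after their values were seen. Gene symbols came from the study's supplementary tables, which list 43 of the 444 CpGs with 30 symbols. No DNA sequence of this build was used here. Alternatives were centring on the median, quantile normalization, fractions, the libraries of 1 contrast alone, eBayes with trend, a replicate block, and libraries left out. Leaving out each library alone was chosen after seeing the data.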

Additional observations from a re-analysis of the deposited data

Results flagged for a closer look

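The effect of ×5 differed between glucose levels by a test of the difference itself, the interaction in limma, at 87 of the 444 unmethylated CpGs with a p-value under 0.01 before and none under 0.05 after Benjamini-Hochberg adjustment. This is 19.6% of them, against 2.79% of all tested CpGs, and under quantile normalization it was 28, or 6.31% against 1.61%. Of the CpGs named in the report, 9 were among them. The effect of ×5 was higher in High than in Low cells at 8 of the 9 and lower at 1. All 9 were named for the smallest p-value in a test on these same data, 1 of them in the interaction itself. Their calls are thus no separate evidence. The largest of these 9 differences was 2.89 on the log2 scale (SE 0.71; limma adjusted p = 0.229) at position 12133291 of chromosome 7, listed with NDUFB7. At position 470815 of chromosome 14 it was 2.66 (SE 0.49), with the smallest adjusted p of the 444 (limma, 0.149). Its levels were 9.08% ± 3.75 in Low Control, 4.33% ± 0.391 in Low ×5, 3.25% ± 0.992 in High Control and 9.14% ± 1.91 in High ×5 (SD, n = 3). The difference was 2.22 at position 51629521 of chromosome 17, 2.12 at position 93162246 of chromosome 7, 1.99 at position 7663413 of chromosome 13, 1.86 at position 97138596 of chromosome 5, 1.74 at position 401617 of chromosome 14 and 1.59 at position 8104342 of chromosome 3. At position 8110910 of chromosome 3 it was -1.63 (SE 0.39; limma adjusted p = 0.222). The interaction rests on the same 12 libraries as the contrasts of the report, the 3 of Low Control among them.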

How the results depend on the processing

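The number of unmethylated CpGs and of regions stayed within 1.5 times: 444 by the median over libraries (435 shared), 445 after quantile normalization (441 shared) and 446 after centring (444 shared), in 298 regions at a gap of 1 kb and 174 at 100 kb. Mean differences shrank under quantile normalization in all 10 contrasts. The mean difference kept its sign under centring, quantile normalization and each library left out in 7 of the 10 contrasts. No call had an adjusted p-value under 0.05 (0 in all 12 tests, limma), and the counts of calls depended on scaling and on single libraries. The cause was not tested. Depth limits all of them, since it is unknown.

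The percentage after a count is that of all tested CpGs called under the same setting. Under quantile normalization the calls were 23 in Low ×5 vs. Low Control (1.64%), 19 in Low ×2.5 vs. Low Control (1.57%), 4 in High ×5 vs. Low ×5 (1.03%), 19 in High Control vs. Low Control (1.67%), 15 in High ×5 vs. Low Control (2.25%), 28 for the interaction (1.61%) and 16 for the F-test (1.23%). Mean differences under it were 0.036 in High ×5 vs. High Control, -0.13 in Low ×5 vs. Low Control, -0.12 in Low ×2.5 vs. Low Control, 0.054 in High ×5 vs. Low ×5, -0.11 in High Control vs. Low Control, 0.057 in High ×2.5 vs. High Control, 0.070 in High ×2.5 vs. Low ×2.5, -0.072 in High ×5 vs. Low Control, -0.0055 in Low ×5 vs. Low ×2.5 and -0.022 in High ×5 vs. High ×2.5, where the sign turned. Centring left 2 calls in High ×5 vs. High ×2.5 (1.51%). On fractions there were 5 calls in High ×5 vs. High Control (1.29%), 0 in High ×2.5 vs. High Control (0.895%), 2 in High ×5 vs. High ×2.5 (1.54%), 19 in Low ×5 vs. Low Control (1.97%), 12 in Low ×2.5 vs. Low Control (1.98%), 0 in Low ×5 vs. Low ×2.5 (0.283%), 3 in High ×5 vs. Low ×5 (1.30%), 0 in High ×2.5 vs. Low ×2.5 (0.927%), 10 in High Control vs. Low Control (1.93%), 21 for the interaction (2.20%) and 3 for the F-test (1.36%). With only the libraries of a contrast there were 0 in High ×5 vs. High ×2.5 (0.810%), 54 in Low ×5 vs. Low Control (1.78%), 18 in Low ×2.5 vs. Low Control (1.33%), 7 in Low ×5 vs. Low ×2.5 (0.873%) and 12 in High ×2.5 vs. Low ×2.5 (1.03%). With trend and robust eBayes there were 6 in High ×2.5 vs. High Control (0.949%), 2 in High ×5 vs. High ×2.5 (1.38%), 23 in High ×5 vs. Low ×5 (1.46%), 17 in High Control vs. Low Control (1.72%) and 18 for the F-test (1.32%).

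With libraries left out, the calls ranged from 5 to 17 in High ×5 vs. High Control, 1 to 13 in High ×2.5 vs. High Control, 2 to 8 in High ×5 vs. High ×2.5, 23 to 147 in Low ×5 vs. Low Control, 6 to 130 in Low ×2.5 vs. Low Control, 0 to 9 in Low ×5 vs. Low ×2.5, 10 to 65 in High ×5 vs. Low ×5, 3 to 43 in High ×2.5 vs. Low ×2.5, 7 to 92 in High Control vs. Low Control, 6 to 22 in High ×5 vs. Low Control, 26 to 155 for the interaction and 6 to 77 for the F-test. All tested CpGs moved too, for example from 1.05% to 4.94% called in Low ×5 vs. Low Control and from 0.867% to 2.39% in High ×5 vs. Low ×5. Mean differences ranged from -0.17 to 0.35 in High ×5 vs. High ×2.5, -1.01 to -0.30 in Low ×2.5 vs. Low Control, -0.33 to 0.084 in Low ×5 vs. Low ×2.5, 0.37 to 0.77 in High ×5 vs. Low ×5, 0.094 to 0.63 in High ×2.5 vs. Low ×2.5 and -0.55 to 0.14 in High ×5 vs. Low Control, where the sign turned without the libraries numbered 3.

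Replicate numbers did not pair the samples: same-numbered libraries correlated between -0.106 and 0.115 in their deviations from treatment means. With a replicate block, calls were 80 in Low ×5 vs. Low Control (2.32%), 34 in High ×5 vs. Low ×5 (1.67%), 21 in High Control vs. Low Control (1.93%) and 8 in High ×2.5 vs. Low ×2.5 (1.06%).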
